A study of Rattus norvegicus with 20 samples.

Results

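Milk of lactating rats collected 2 h after an injection of lipopolysaccharide (LPS) was compared with milk collected 2 h after saline. The comparison used 10 of the 20 libraries of the series, 5 from LPS dams and 5 from saline dams, and 12900 of the 16748 genes in the deposited table, namely those above the table's lowest value in at least 1 of these libraries. Both groups were wild-type Sprague-Dawley dams treated on postnatal day 10, and the libraries of a group came from 5 separate dams. LPS is the endotoxin of Gram-negative bacteria; its dose and route, and the dams' ages, are not stated in the labels. All dams, controls included, were lightly anesthetized with isoflurane and received 0.2 mL of oxytocin at 20 USP per mL to release the milk, and stranded mRNA libraries were made from the washed fat layer. The design addresses which milk transcripts differ shortly after an immune stimulus to the mother.

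LPS is bound by CD14 and MD-2 and signals through Toll-like receptor 4, the adaptor MyD88 and IRAK kinases to NF-kB and AP-1, which switch on chemokine and immediate early genes within hours. Milk fat droplets bud from the luminal secretory cell wrapped in its apical membrane and can carry cytoplasm with them, so that RNA of the fat layer largely comes from these cells, with leukocytes of milk as a further source. Milk protein genes in these cells are driven by prolactin through JAK2 and STAT5, with glucocorticoids as a partner signal.

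Normalised counts, the unit used for single genes below, were recovered from the deposited log2-scale values; differences are given on the deposited log2 scale as LPS minus saline with the standard error (SE), and that scale compresses the differences of rare genes. Genes detected per library numbered 11200 to 11915 in saline and 10819 to 11419 in LPS libraries, with means of 11505 ± 277 and 11121 ± 261 (two-sided exact permutation test, p = 0.0635, adjusted p = 0.19 over 3 library measures); read depth is unknown. Correlations between libraries across genes were 0.976 to 0.989. Markers of the luminal epithelium summed to 152444 to 160215 in saline and 152623 to 191547 in LPS libraries, and the secretory-cell factor Elf5 was at 49578 to 62885 in every library. Markers of fibroblasts and adipocytes summed to at most 28.8 in saline and 35.5 in LPS libraries. In such bulk RNA, fewer cells of a type and less RNA per cell cannot be told apart. Haemoglobin transcripts, a sign of blood, summed to 46281 in saline library 3 and to 180 to 1658 in the other libraries.

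No single gene passed the threshold. Of 12900 genes, 0 (0%) had an adjusted p under 0.05 in limma's moderated test, and the smallest adjusted p was 0.297. Without adjustment, 986 genes (7.64%) had a p under 0.05, where 645 would be expected if no gene differed; 484 of them (3.75%) were higher with LPS and 502 (3.89%) lower. Without LPS library 4 the higher count was 736, and in a fit that took in all 20 libraries the counts were 285 higher and 320 lower. By the sample titles some dams gave a library on both days, which that fit treats as independent. The median difference over all genes was -0.01, and 47.6% of genes had a positive difference. In 142 genes the LPS and saline values did not overlap, with all LPS libraries above all saline libraries in 53 (0.411%) and below in 89 (0.69%). Leaving out LPS library 4 gave 193 and 234 such genes; each of the other libraries left out in turn gave 74 to 121 higher and 125 to 165 lower, where 5 libraries against 4 separate more easily. With 5 libraries against 5, a gene that does not differ separates in either direction with a probability of 0.00794, the smallest exact permutation p. The 53 higher genes are close to the number chance alone gives, and the 89 lower genes exceed it. Separation of a single gene is therefore a description below, not evidence of a difference.

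The most abundant transcripts leaned towards LPS. Among the 166 genes with a mean deposited value of at least 14, the median difference was 0.07, 62% of differences were positive, 22 genes (13.3%) had an unadjusted p under 0.05 and were higher, and 1 (0.602%) was lower. In the bands below that level the median lay between -0.03 and 0.02. Csn1s2b and Tf had the largest positive differences in this band.

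The authors' deposited table for this time listed 1024 genes with a raw p under 0.05, and 48 of these had an adjusted p under 0.05, of which 34 were higher and 14 lower with LPS. All 48 had the same sign and an unadjusted p under 0.05 in limma on the log2-scale values, although none passed there after adjustment. In 29 of the 48 the groups did not overlap, 18 of them higher and 11 lower, against 0.411% and 0.69% over all genes. The 48 were picked by small p in these same libraries, so frequent separation follows from the choice. The authors' result and limma's come from the same 10 libraries and are not independent of each other.

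**Figure D1:**
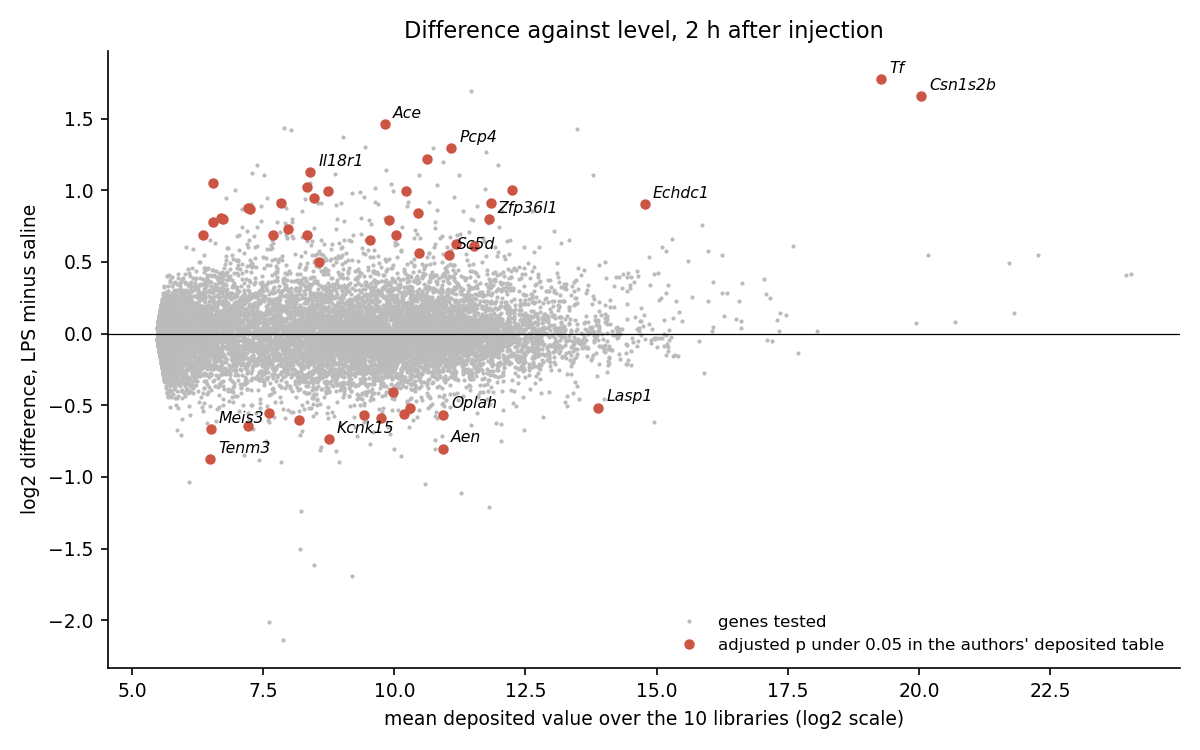
Each point is a gene; the horizontal axis is its mean deposited value over the 10 libraries and the vertical axis the log2 difference, LPS minus saline. Red points are the 48 genes with an adjusted p under 0.05 in the authors' deposited table; Tf and Csn1s2b stand out at the abundant end with differences of 1.78 and 1.66.

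Ace, which encodes angiotensin-converting enzyme, had the smallest p of all genes. Its normalised counts were 517, 454, 407, 332 and 643 in the saline libraries and 2730, 1155, 1130, 1249 and 1266 in the LPS libraries. Every LPS library was above every saline library, and LPS library 1 stood well above the other LPS libraries. The means were 471 ± 118 and 1506 ± 687 (SD, n = 5 each), a ratio of 3.20, and the difference was 1.46 ± 0.23 (SE; limma, adjusted p = 0.297). In the authors' deposited table its log2 fold change was 1.68 ± 0.27 with an adjusted p of 2.5e-06.

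Echdc1, which encodes a metabolite-proofreading ethylmalonyl-CoA decarboxylase, was close behind. It was at 19328, 18980, 23423, 17927 and 22575 in saline and at 40259, 29757, 48862, 43396 and 31655 in LPS libraries. The groups were apart, with the lowest LPS value in library 2. The difference was 0.90 ± 0.15, a ratio of means of 1.90 (limma, adjusted p = 0.297; 4.9e-05 in the authors' deposited table).

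Csn1s2b encodes a member of the alpha-S2 casein family of calcium-binding milk proteins. Its normalised counts were 530711, 396606, 761071, 863720 and 589091 in saline libraries. In LPS libraries they were 3335050, 2339380, 1834060, 921199 and 1942310. All LPS libraries were above all saline libraries, but LPS library 4 was only just above the highest of them. The ratio of means was 3.30 and the difference 1.66 ± 0.38 (limma, adjusted p = 0.437; 8.2e-06 in the authors' deposited table); it was 0.76 after quantile normalisation. As a share of all normalised counts Csn1s2b went from 0.971% ± 0.338 in saline to 2.43% ± 0.756 in LPS libraries (SD, n = 5), with ranges of 0.656% to 1.48% and 1.54% to 3.54%; the shares did not overlap either.

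The other major caseins did not separate in this way. Csn2, beta-casein, took 21.5% ± 3.05 of normalised counts in the saline and 22.7% ± 1.72 in the LPS group, and its difference was 0.41 ± 0.86 (limma, adjusted p = 0.919). Csn1s1, the alpha-S1 casein, took 23.1% ± 3.38 and 24.5% ± 2.24. For these very abundant genes the SE follows the model's mean-variance trend, and without the trend the SE of Csn2 was 0.26. The whey acidic protein gene Wap had a share of 5.36% ± 0.468 in saline and 4.80% ± 0.982 in LPS libraries. Another abundant casein gene, Csn1s2a, was named after its values were seen. In the authors' deposited table its log2 fold change was 0.56 ± 0.24 with an adjusted p of 0.385.

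The promoters of Csn1s2b and Csn2 are shown because these caseins, neighbours on 1 chromosome, differed in how far the groups lay apart; Csn1s2b was chosen for this after its values were seen. They come from RefSeq on the GRCr8 assembly and run from 250 bases before to 50 bases after the annotated start, 5′ to 3′ on the gene's strand; capitals mark the STAT motif TTCNNNGAA, which is the same on both strands.
Csn1s2b, chr14:20545569-20545868, minus strand: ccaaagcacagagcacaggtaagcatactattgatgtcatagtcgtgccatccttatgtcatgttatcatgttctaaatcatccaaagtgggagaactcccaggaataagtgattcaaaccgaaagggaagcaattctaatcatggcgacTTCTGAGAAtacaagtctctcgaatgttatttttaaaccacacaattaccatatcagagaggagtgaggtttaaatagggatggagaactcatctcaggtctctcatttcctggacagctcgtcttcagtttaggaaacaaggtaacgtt
Csn2, chr14:20601574-20601873, plus strand: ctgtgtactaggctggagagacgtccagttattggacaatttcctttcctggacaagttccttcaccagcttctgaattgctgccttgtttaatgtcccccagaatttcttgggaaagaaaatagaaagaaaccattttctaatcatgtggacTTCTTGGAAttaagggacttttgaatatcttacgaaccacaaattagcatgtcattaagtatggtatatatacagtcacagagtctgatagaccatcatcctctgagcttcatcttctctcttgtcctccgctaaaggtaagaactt
Each held 1 match, starting at -100 in Csn1s2b and -97 in Csn2 relative to the start. The promoter of Csn1s1 also held 1, and those of Lalba and Wap held 0. Of 33469 RefSeq rat promoters of this length, 2970 (8.87%) held the motif, and a match describes letters only.

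Lalba, alpha-lactalbumin, the regulatory subunit of lactose synthase, was at 1095780, 862347, 839342, 1081290 and 1058410 in saline. In LPS libraries it was at 1710110, 1700450, 1321900, 944714 and 1677150. LPS libraries 1, 2, 3 and 5 exceeded all saline libraries and LPS library 4 lay within them. The difference was 0.55 ± 0.30 (limma, adjusted p = 0.712), and it was -0.26 after quantile normalisation. As a share of counts Lalba was at 1.35% to 1.64% in saline and 1.57% to 1.96% in LPS libraries.

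Across the 16 measured members of the casein and whey list, 13 had a positive difference, 4 had an unadjusted p under 0.05 and were higher, and 0 were lower, with a median of 0.41. Over all genes the shares were 47.6%, 3.75% and 3.89%, with a median of -0.01. The median of this list was 0.01 after quantile normalisation, which forces the abundant ends of all libraries to be equal. Besides Csn1s2b these 4 were Lao1, an L-amino acid oxidase of milk (0.80 ± 0.21), the lactoperoxidase gene Lpo, an antibacterial enzyme of milk (0.53 ± 0.18), and Scgb2a2, a secretoglobin (0.65 ± 0.25), with limma adjusted p-values of 0.538 and above. The casein and whey genes took 65% ± 7.61 of normalised counts in the saline and 70% ± 5.99 in the LPS group (exact permutation test, two-sided p = 0.27, adjusted over 3 library measures p = 0.27).

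Tf encodes transferrin, the iron carrier that rodent mammary epithelium secretes into milk. Its normalised counts were 285643, 141837, 356580, 597351 and 563292 in saline and 947490, 1822330, 1369960, 778005 and 1254240 in LPS libraries. The groups did not overlap, and saline library 2 was the lowest of all. The ratio of means was 3.17 and the difference 1.78 ± 0.40 (limma, adjusted p = 0.437; 4.3e-04 in the authors' deposited table); it was 1.06 after quantile normalisation. Its share of counts was 0.579% ± 0.25 in saline and 1.49% ± 0.424 in LPS libraries, and every LPS share was above the highest saline share of 0.794%.

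Genes of the milk fat globule coat were mostly positive. Of 12 measured members, 10 had a positive difference. With an unadjusted p under 0.05, 3 were higher (against 3.75% over all genes) and 0 were lower. The median was 0.18 and ranged from 0.12 without LPS library 1 or 5 to 0.28 without LPS library 4. Mfge8, the lactadherin of the globule membrane, was at 131223 to 190951 in saline and 156239 to 337855 in LPS libraries, with LPS library 4 the lowest of its group (0.61 ± 0.21; limma, adjusted p = 0.556). Muc15, a membrane mucin, differed by 0.66 ± 0.23 (limma, adjusted p = 0.556). Btn1a1 and Xdh, which with perilipin form the core of the globule coat, differed by 0.28 ± 0.21 and -0.14 ± 0.16. Fasn, the fatty acid synthase, differed by 0.08 ± 0.40, with a sign that changed between settings.

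**Figure D2:**
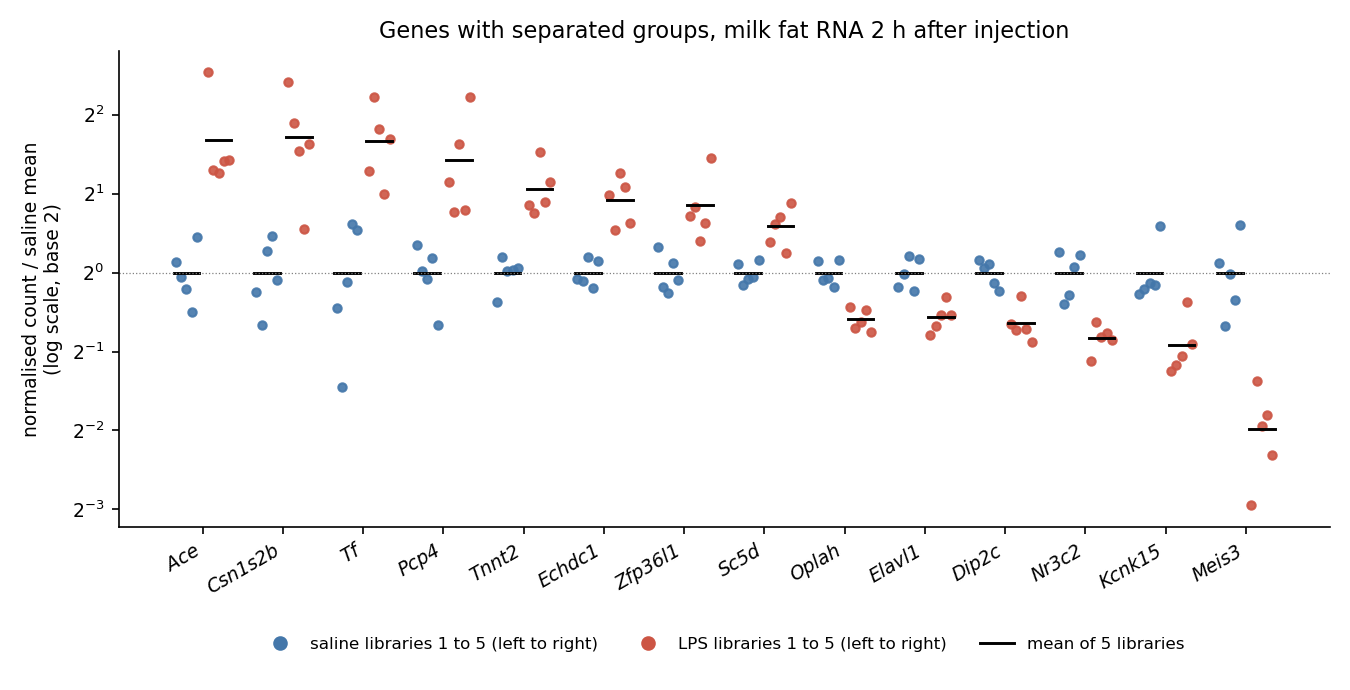
Normalised count of each library divided by the mean of the 5 saline libraries (log axis, base 2), for 14 genes whose groups do not overlap; libraries 1 to 5 run from left to right in each group and bars are means. LPS libraries lie above all saline libraries for Ace to Sc5d and below them for Oplah to Meis3.

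Several other genes separated upwards. Pcp4, a calmodulin-binding peptide, was at 1687, 1343, 1258, 1514 and 838 in saline and at 2936, 2270, 4103, 2304 and 6194 in LPS libraries. Its lowest LPS library was above its highest saline library, with a ratio of 2.68 and a difference of 1.29 ± 0.26 (limma, adjusted p = 0.437). Zfp36l1, an RNA-binding protein that speeds the decay of AU-rich mRNAs, was at 2213 to 3328 in saline and 3509 to 7212 in LPS libraries (0.80 ± 0.18). Ceacam1, an adhesion molecule of epithelial surfaces, was at 1736 to 2767 and 3234 to 4304 (0.61 ± 0.13), and the sulfate transporter gene Slc26a2 at 145 to 250 and 269 to 404 (0.69 ± 0.15). In each of these the lowest LPS library exceeded the highest saline library. The troponin gene Tnnt2 was at 90.2 to 135 and 197 to 339 (0.73 ± 0.15). The lipid phosphatase gene Plpp3 was at 702 to 832 and 943 to 3307, with LPS libraries 2 and 5 the highest (0.99 ± 0.27). Hist1h2bh, a member of the multicopy histone H2B family whose reads may be shared among copies, was at 1590 to 2145 and 2397 to 3415 (0.62 ± 0.12). For the 7 genes of this group limma's adjusted p lay between 0.416 and 0.553.

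Others of the authors' list overlapped between groups. Prpf31, a splicing factor, was at 2511 to 4755 in saline and at 3503, 6769, 5377, 8754 and 12709 in LPS libraries, and the zinc transporter gene Slc39a1 followed a like pattern at 2038 to 3452 against 2831, 6269, 3211, 5728 and 9184. In both, LPS library 1 lay within the saline range and LPS library 5 was the highest. Oprpn, which encodes a secreted proline-rich protein, differed by 1.22 ± 0.29, Hhatl by 0.84 ± 0.20 and the ribonuclease gene Rnaset2 by 0.56 ± 0.14 (limma, adjusted p = 0.437 for each).

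Among genes lower with LPS, Oplah, the 5-oxoprolinase of the glutathione cycle, had the smallest p among those with a mean deposited value of at least 7.5. It was at 2541, 2161, 2185, 2026 and 2576 in saline and at 1698, 1411, 1494, 1649 and 1360 in LPS libraries. The groups were apart with little spread in either. The ratio of means was 0.662 and the difference -0.57 ± 0.10 (limma, adjusted p = 0.387; 0.00437 in the authors' deposited table).

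Nr3c2, the mineralocorticoid receptor gene, was at 335, 211, 229, 294 and 327 in saline and at 128, 181, 158, 164 and 154 in LPS libraries. All LPS libraries were below all saline libraries, and the ratio of means was 0.562 (-0.60 ± 0.14; limma, adjusted p = 0.437). Elavl1, the RNA-stabilising protein HuR, was at 1434 ± 196 in saline and 972 ± 123 in LPS libraries (SD, n = 5; -0.52 ± 0.12). Kcnk15, a potassium channel gene, was at 400 to 725 and 203 to 373 (-0.74 ± 0.18). Dip2c was at 641 to 837 and 409 to 609, Lurap1 at 1068 to 1488 and 732 to 1053, and Rims4 at 932 to 1182 and 707 to 861. These groups did not overlap, and limma's adjusted p for these 5 genes lay between 0.437 and 0.493.

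The rarer genes Meis3, a homeobox factor, and Tenm3, a teneurin adhesion protein, also separated. Meis3 was at 48.2, 27.9, 43.8, 34.9 and 67.7 in saline and at 5.77, 17.1, 11.6, 12.7 and 8.93 in LPS libraries, a ratio of means of 0.252 (-0.67 ± 0.13; limma, adjusted p = 0.416). Tenm3 was at 28.8 to 69.6 in saline and 0 to 20.5 in LPS libraries. Aen, a p53-induced nuclease, was at 2480, 2147, 3403, 1702 and 2971 against 1292, 966, 1827, 1548 and 1407 and overlapped through saline library 4 and LPS library 3 (-0.80 ± 0.19; limma, adjusted p = 0.437). Lasp1, an actin-binding protein, and Ntmt1, an N-terminal methyltransferase, overlapped as well, at -0.52 ± 0.12 and -0.59 ± 0.14.

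**Figure D3:**
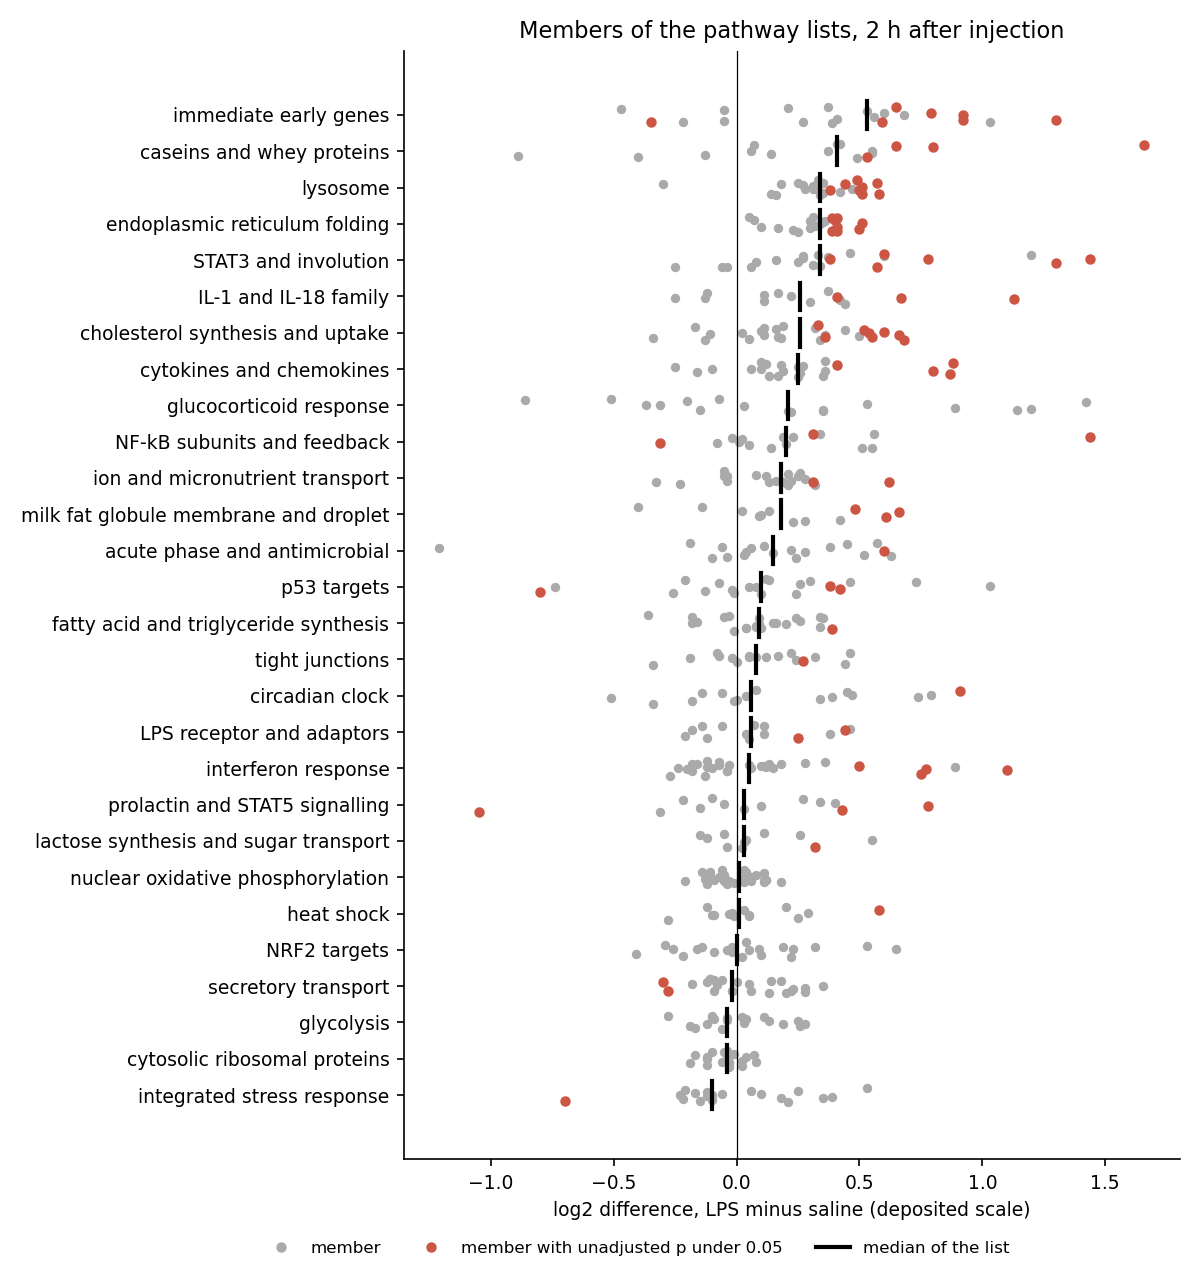
Each point is a measured member of a pathway list, placed by its log2 difference, LPS minus saline; red points have an unadjusted p under 0.05 and bars are list medians. The median is 0.53 for immediate early genes, 0.34 for lysosome, endoplasmic reticulum folding and STAT3 genes, and near 0 for oxidative phosphorylation at 0.01.

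Genes of the LPS signal itself were then read in order, from receptor to target. The receptor Tlr4 was at 511, 89.6, 183, 200 and 409 in saline and at 263, 240, 158, 120 and 290 in LPS libraries. The groups overlapped fully (-0.18 ± 0.32; limma, adjusted p = 0.902). Its co-receptor Ly96, MD-2, differed by 0.44 ± 0.20, the kinase Irak4 by 0.25 ± 0.10 and Cd14 by 0.38 ± 0.40 (limma, adjusted p = 0.646, 0.629 and 0.846). Of the 14 measured members of the receptor and adaptor list, 9 had a positive difference, and the median was 0.06. In this list 2 had an unadjusted p under 0.05 and were higher (against 3.75% over all genes), and 0 were lower.

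Bcl3, an IkB-family coactivator of NF-kB that is also induced by STAT3, had the largest ratio in the NF-kB list. It was at 41.7, 85.1, 141, 39.2 and 68.8 in saline and at 111, 1404, 61.5, 269 and 598 in LPS libraries. LPS libraries 2, 4 and 5 were above all saline libraries, and LPS libraries 1 and 3 lay among them. The difference was 1.44 ± 0.53 (limma, adjusted p = 0.58) and 0.96 without LPS library 2. Nfkbia, the IkB-alpha inhibitor that NF-kB itself switches on, was at 2595 to 5940 in saline and at 2343, 6919, 2369, 3767 and 11222 in LPS libraries, high in libraries 2 and 5 alone, and its difference of 0.19 ± 0.39 was -0.14 without LPS library 5. In the list of 16 measured members, 13 had a positive difference. With an unadjusted p under 0.05, 2 were higher and 1 was lower, against 3.75% and 3.89% over all genes. The median was 0.20, or 0.12 without saline library 3, 0.09 without LPS library 2 and 0.06 without LPS library 5.

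The chemokine Cxcl1, a neutrophil attractant that NF-kB induces in epithelium, separated the groups. It was at 18.3, 17.1, 16.7, 18.4 and 12.5 in saline and at 59.7, 74.6, 21.1, 49.6 and 174 in LPS libraries. LPS library 3 was barely above the saline range, and LPS library 5 was far above it. The ratio of means was 4.57 and the difference 0.80 ± 0.22 (limma, adjusted p = 0.553; 0.00624 in the authors' deposited table); on a scale of log2(normalised count + 1) it was 1.82. Its relative Cxcl2 was at 24.7, 33.4, 50, 14.1 and 47.6 in saline and at 167, 295, 18.1, 28.7 and 205 in LPS libraries (0.87 ± 0.38; limma, adjusted p = 0.644). Cxcl3, named after its values were seen, was at 23.8 to 59.5 in saline and at 140, 380, 29.2, 56.4 and 185 in LPS libraries. Cxcl2 and Cxcl3 were above all saline libraries in LPS libraries 1, 2 and 5 and within the saline range in libraries 3 and 4.

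The promoters of Cxcl1 and Cxcl2 are shown because they carry the binding motif of NF-kB, the factor downstream of the LPS receptor. Source, length and direction are as above; capitals mark the kappaB motif, GGG and TTTCC with any 2 bases between them, on either strand.
Cxcl1, chr14:17479272-17479571, minus strand: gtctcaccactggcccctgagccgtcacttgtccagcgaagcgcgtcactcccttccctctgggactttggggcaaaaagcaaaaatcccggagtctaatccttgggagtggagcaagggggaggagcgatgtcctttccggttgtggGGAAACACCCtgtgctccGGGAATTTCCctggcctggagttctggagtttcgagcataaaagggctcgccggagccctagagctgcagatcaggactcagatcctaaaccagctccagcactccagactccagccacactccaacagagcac
Cxcl2, chr14:17467206-17467505, minus strand: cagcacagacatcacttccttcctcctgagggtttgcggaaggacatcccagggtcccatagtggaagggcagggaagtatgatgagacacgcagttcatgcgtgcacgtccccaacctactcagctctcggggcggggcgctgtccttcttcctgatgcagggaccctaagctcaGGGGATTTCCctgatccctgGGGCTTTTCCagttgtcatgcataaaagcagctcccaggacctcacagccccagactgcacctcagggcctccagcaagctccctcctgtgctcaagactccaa
Each held 2 matches, starting at -102 and -84 in Cxcl1 and at -74 and -54 in Cxcl2. Of the 33469 promoters, 512 (1.53%) held a match. Cxcl1 and Cxcl2 were chosen for holding the motif, so their matches are not a test, and a match describes letters only. The promoters of Ace, Tf, Echdc1 and Sc5d held neither the kappaB nor the STAT motif, which says only that these letters are not in the window. That of Il18r1 held 1 STAT match and 0 kappaB matches.

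Levels of the other cytokine genes ranged widely. Ccl28, an epithelial chemokine named after its values were seen, was at 3583 to 6036 in saline and 4066 to 7208 in LPS libraries. Il1b, the interleukin-1 beta gene, was at 23.6 to 85.3 in saline and 14.5 to 175 in LPS libraries (0.35 ± 0.30; limma, adjusted p = 0.804), and Il6 was at the table's lowest value in all 10 libraries. Ccl2, a monocyte attractant, was at 1.08 to 14.1 and 0 to 48.3, with a sign that changed between settings. Tnf, Tnfaip3 and Saa3 had no match by symbol or synonym in the deposited table, so they could not be read. Of 23 measured cytokine and chemokine genes, 20 had a positive difference, and the median was 0.25, or 0.14 without LPS library 5. Among them 4 had an unadjusted p under 0.05 and were higher (against 3.75% over all genes), and 0 were lower.

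Il18r1, a chain of the interleukin-18 receptor, was the receptor gene that differed most in the interleukin-1 and interleukin-18 list. It was at 133, 94.3, 288, 165 and 110 in saline and at 607, 452, 509, 225 and 373 in LPS libraries. The groups overlapped only through saline library 3 and LPS library 4, and the ratio of means was 2.74 (1.13 ± 0.25; limma, adjusted p = 0.437; 0.00621 in the authors' deposited table). The ligand Il18 was at 9.67 to 32.9 in saline and 25.7 to 49.6 in LPS libraries, a ratio of 2.12 (0.41 ± 0.14; limma, adjusted p = 0.553). Il18bp, the secreted decoy of interleukin-18, was at 88.8 to 182 in saline and at 122, 304, 126, 237 and 525 in LPS libraries (0.67 ± 0.28). Of 14 measured members, 11 had a positive difference, with a median of 0.26, which was 0.15 without LPS library 1. Among these 14, 3 had an unadjusted p under 0.05 and were higher (against 3.75% over all genes), and 0 were lower. Nod2, an intracellular sensor of bacterial peptidoglycan named after its values were seen, was at 4.50 to 20.8 in saline and 20.1 to 145 in LPS libraries, with a single overlap (0.78 ± 0.23; limma, adjusted p = 0.553; 0.0194 in the authors' deposited table).

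**Figure D4:**
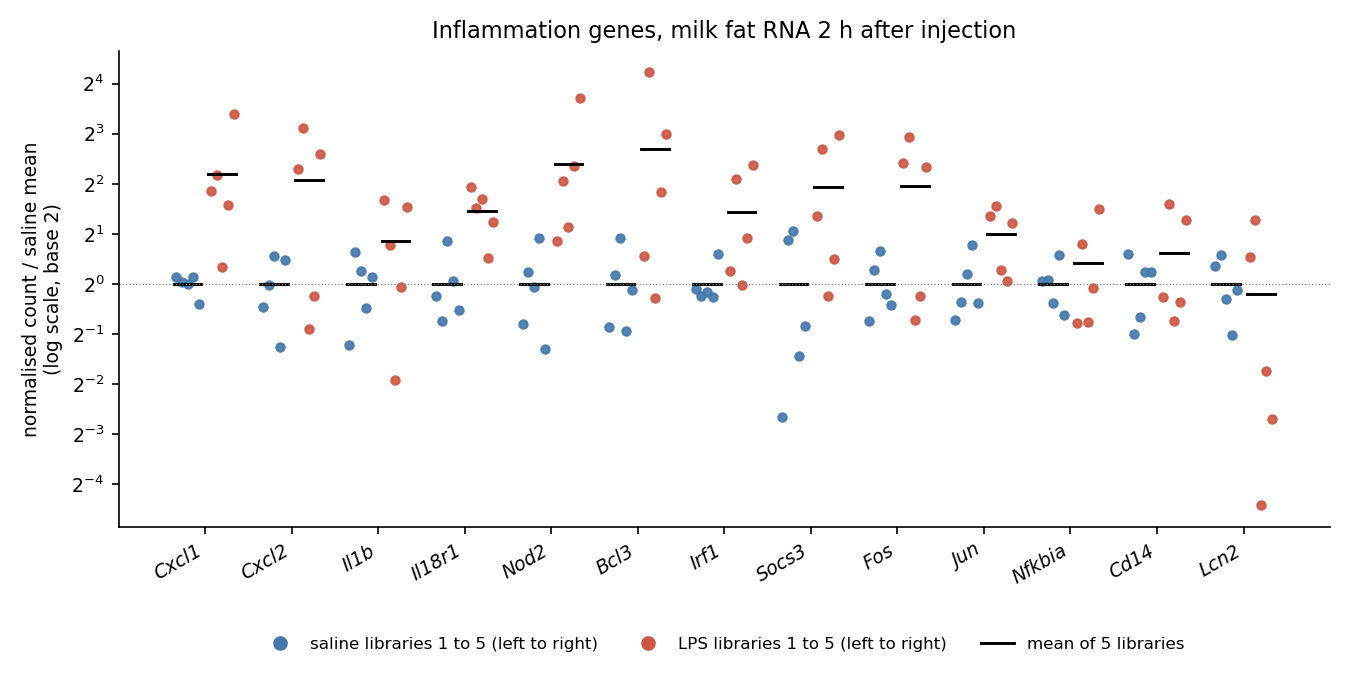
Normalised count of each library divided by the mean of the 5 saline libraries (log axis, base 2) for 13 genes of LPS signalling, cytokines and early response; libraries 1 to 5 run from left to right in each group and bars are means. For Cxcl2, Fos and Socs3 the high LPS values come from libraries 1, 2 and 5, while libraries 3 and 4 lie within the saline range.

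Immediate early genes, which cells switch on within minutes of a stimulus, differed widely among the LPS libraries. Fos, a subunit of AP-1, was at 228, 462, 598, 331 and 284 in saline and at 2027, 2891, 230, 324 and 1907 in LPS libraries. LPS libraries 1, 2 and 5 were several times the highest saline library, and libraries 3 and 4 lay within the saline range (1.30 ± 0.57; limma, adjusted p = 0.644). Its partner Jun was at 524, 666, 982, 1468 and 657 in saline and at 2188, 2512, 1043, 899 and 1989 in LPS libraries, with the same 3 libraries above all saline libraries (0.92 ± 0.31; limma, adjusted p = 0.553). Klf6, a zinc-finger factor, was at 1528 to 2920 and at 3876, 6092, 2187, 2026 and 6765 (0.79 ± 0.32). The list had 21 measured members, of which 16 had a positive difference, with a median of 0.53. With an unadjusted p under 0.05, 6 were higher and 1 was lower, against 3.75% and 3.89% over all genes. The list's mean deposited value was 8.62 to 8.97 in saline libraries and 9.51, 9.61, 8.38, 8.73 and 9.70 in LPS libraries 1 to 5. The median was 0.34 without LPS library 5, its lowest value with any library left out.

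STAT3 is the factor through which cytokines start mammary involution. Socs3, the feedback inhibitor of cytokine receptors, was at 3.23, 37.3, 42.7, 7.55 and 11.4 in saline and at 52.4, 132, 17.4, 28.8 and 161 in LPS libraries. The values of LPS libraries 1, 2 and 5 were the only ones above the saline range (0.78 ± 0.30; limma, adjusted p = 0.609). The protease gene Ctsb, cathepsin B, was at 20160 to 45980 in saline and at 43028, 49411, 50890, 34616 and 47838 in LPS libraries (0.57 ± 0.20; limma, adjusted p = 0.556). Stat3 itself, named after its values were seen, was at 4248 to 6630 in saline and at 6949, 17445, 5107, 6223 and 10668 in LPS libraries. Of 22 measured members 19 had a positive difference, and the median was 0.34. Among these 22, 6 had an unadjusted p under 0.05 and were higher (against 3.75% over all genes), and 0 were lower.

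Irf1, an interferon-induced transcription factor, was at 844, 767, 810, 760 and 1368 in saline and at 1092, 3883, 901, 1724 and 4718 in LPS libraries. Libraries 2, 4 and 5 of the LPS group were above all saline libraries (1.10 ± 0.39; limma, adjusted p = 0.557). Gbp5, a guanylate-binding protein of host defence, was at 3.20 to 16.2 in saline and 6.5 to 57.5 in LPS libraries (0.50 ± 0.17; limma, adjusted p = 0.556). Of 31 measured members of the interferon list 16 had a positive difference, 4 had an unadjusted p under 0.05 and were higher (against 3.75% over all genes), 0 were lower, and the median was 0.05.

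Antimicrobial and acute phase genes of milk were mixed. Chi3l1, a secreted chitinase-like protein, was at 229 to 448 in saline and 432 to 636 in LPS libraries (0.60 ± 0.17; limma, adjusted p = 0.553). Lcn2, lipocalin 2, which starves bacteria of iron, was at 7398, 8563, 4636, 2845 and 5272 in saline and at 8296, 13901, 269, 1729 and 884 in LPS libraries. It ranged more widely within the LPS group than between the groups (-1.21 ± 0.82; limma, adjusted p = 0.765), and its difference was -1.85 without LPS library 2 and -0.52 without LPS library 3. Of 19 measured members 14 had a positive difference. Only 1 had an unadjusted p under 0.05 and was higher (against 3.75% over all genes), and 0 were lower. The median was 0.15. It was 0.03 without LPS library 1, 0.07 without LPS library 2 and 0.08 without saline library 2, and 0.27 and 0.29 without LPS libraries 4 and 3.

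Leukocyte markers were read beside these lists. Of 13 measured neutrophil markers 9 had a positive difference, with a median of 0.29, and their summed counts ran from 83.9 to 346 in saline and 96.5 to 1241 in LPS libraries. Elane and Mpo, which encode granule proteins, were at the lowest value in all 10 libraries. S100a8 was at 18.9 to 50.9 in saline and at 105, 160, 14.6, 42.9 and 53.3 in LPS libraries (0.45 ± 0.26; limma, adjusted p = 0.721). Of 12 measured macrophage and monocyte markers 10 were positive, with a median of 0.16 and sums of 798 to 1251 in saline and 595 to 2428 in LPS libraries; Cd163 and Marco were at the lowest value in all 10. The neutrophil list had mean deposited values of 5.89 to 6.37 in saline and 7.14, 6.53, 5.94, 5.90 and 6.39 in LPS libraries, and the macrophage list 6.73 to 6.92 and 7.53, 6.91, 6.56, 6.69 and 7.09. LPS library 1 was the highest in both. The STAT3 and NF-kB lists were highest in LPS libraries 2 and 5. The interleukin-1 and interleukin-18 list was highest in LPS library 1, at 8.36, with 8.14 and 8.22 in LPS libraries 2 and 5. In LPS libraries 1, 2 and 5 the cytokine list was at 6.95, 6.97 and 6.98, and the immediate early list at 9.51, 9.61 and 9.70. Without LPS library 1 the neutrophil median was 0.08 and the macrophage median 0.05. The medians of the immediate early, STAT3, NF-kB, cytokine and interleukin-1 lists were then 0.42, 0.33, 0.28, 0.19 and 0.15. The part of leukocyte RNA in the differences of single genes was not tested. Lymphocyte markers had 4 of 13 positive and a median of -0.05.

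**Figure D5:**
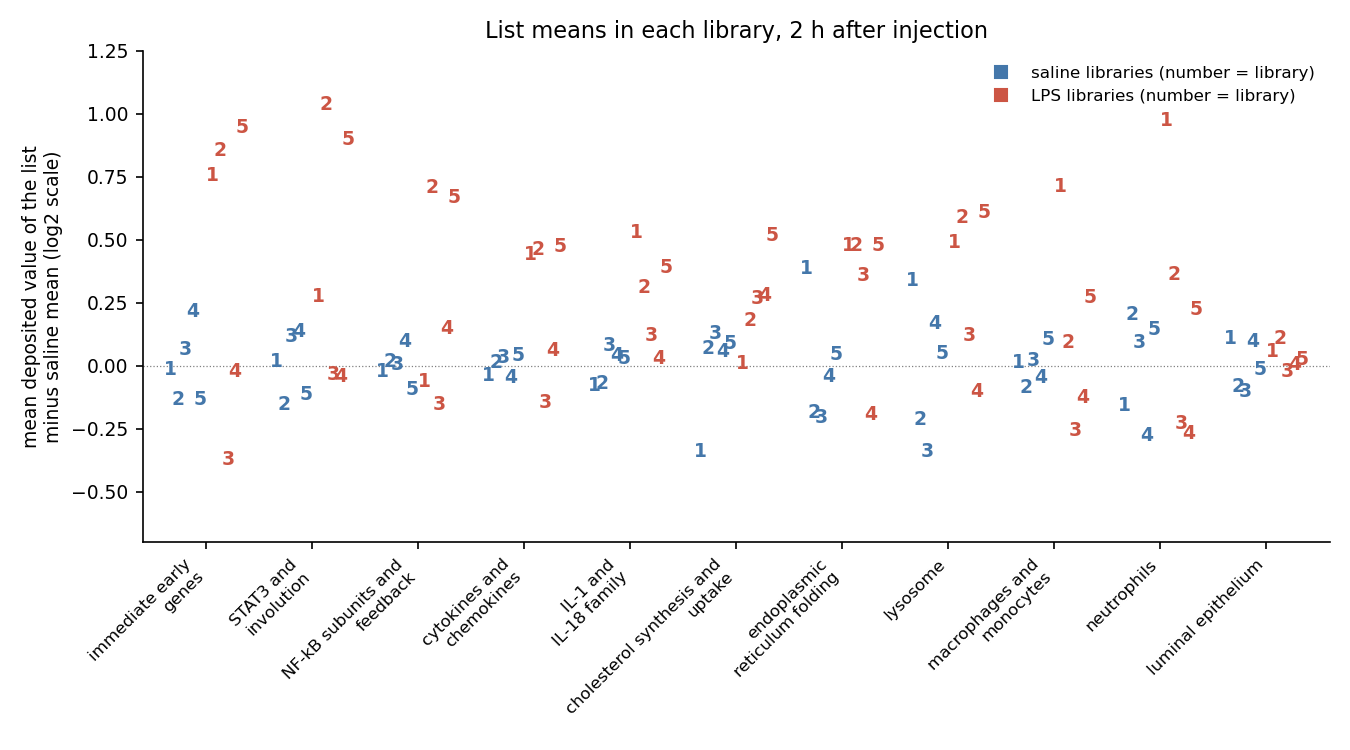
Mean deposited value of the measured members of a list in each library, minus the mean of the 5 saline libraries (log2 scale); numerals give the library. LPS libraries 1, 2 and 5 lie above all saline libraries for immediate early genes and cytokines, and LPS library 3 lies below all of them. LPS library 4 lies within the saline range for immediate early genes and barely above it for cytokines. Luminal markers stay close to 0 in all 10 libraries.

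The first principal component of the 8038 genes with a mean deposited value of at least 7.5 held 31.4% of the variance. It separated LPS libraries 2 and 5 from the rest. Its scores were 24.9 and 25.9 in these libraries, 4.59, -9.07 and -10.6 in LPS libraries 1, 3 and 4, and -19.5 to 5.65 in saline libraries. The groups as such were not separated on it.

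Cholesterol synthesis genes showed a different layout over the libraries. Sc5d, the lathosterol desaturase near the end of the pathway, was at 1791, 1481, 1565, 1593 and 1852 in saline and at 2170, 2544, 2702, 1969 and 3039 in LPS libraries. All LPS libraries were above all saline libraries, and the means were 1657 ± 158 and 2484 ± 425 (0.55 ± 0.12; limma, adjusted p = 0.437; 0.0206 in the authors' deposited table). Idi1, the isopentenyl diphosphate isomerase, was the other member without overlap, at 1431 to 3270 in saline and 3581 to 4886 in LPS libraries, and was named after its values were seen.

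Hmgcs1, a synthase early in the pathway, differed by -0.17 ± 0.34 (limma, adjusted p = 0.913). These genes are targets of the sterol-sensing factor SREBP2. Of 26 measured members 22 had a positive difference, and the median was 0.26, or 0.17 without LPS library 5. Among these 26, 8 had an unadjusted p under 0.05 and were higher (against 3.75% over all genes), and 0 were lower. The list mean was 10.16 to 10.63 in saline libraries, with library 1 the lowest, and 10.51, 10.68, 10.77, 10.78 and 11.02 in LPS libraries, so that LPS libraries 2 to 5 were above all saline libraries.

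Endoplasmic reticulum chaperones and folding enzymes, which fold secreted proteins, were positive in all 22 measured members. Of these 8 had an unadjusted p under 0.05 (against 3.75% higher over all genes), 0 were lower, and the median was 0.34. Sdf2l1, a cofactor of the chaperone BiP, was at 261, 259, 193, 195 and 245 in saline and at 459, 339, 437, 289 and 304 in LPS libraries. The groups did not overlap, although the gap was narrow (0.51 ± 0.15; limma, adjusted p = 0.553). Calr, the lectin chaperone calreticulin, was at 11971 to 16586 in saline and at 23732, 20456, 23633, 13308 and 18990 in LPS libraries (0.50 ± 0.16; limma, adjusted p = 0.553). LPS library 4 lay inside the saline range for Calr, and the list mean was 11.29 there against 11.84 to 11.96 in the other LPS libraries and 11.28 to 11.87 in saline libraries.

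Of the integrated stress response list 8 of 20 members were positive, with a median of -0.10. Against 3.75% and 3.89% over all genes, 0 had an unadjusted p under 0.05 and were higher and 1 was lower. That gene was Trib3, a pseudokinase induced by ATF4, at 1242, 1068, 821, 1335 and 1370 in saline and at 626, 871, 599, 918 and 458 in LPS libraries (-0.70 ± 0.19; limma, adjusted p = 0.534). LPS libraries 1, 3 and 5 were below all saline libraries.

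Lysosomal genes encode enzymes that digest membranes and proteins. Of 24 measured members 23 had a positive difference, and the median was 0.34. Among these 24, 8 had an unadjusted p under 0.05 and were higher (against 3.75% over all genes), and 0 were lower. Hexa, a beta-hexosaminidase subunit, was at 2153, 1324, 1311, 1878 and 1990 in saline and at 2972, 2955, 2209, 2078 and 2836 in LPS libraries (0.58 ± 0.16; limma, adjusted p = 0.553). It overlapped through saline library 1 and LPS library 4. The list mean was 10.86 to 11.54 in saline and 11.69, 11.79, 11.32, 11.10 and 11.81 in LPS libraries. The medians of the cholesterol, endoplasmic reticulum and lysosome lists were 0.24, 0.32 and 0.32 after quantile normalisation.

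Prolactin signalling genes, which drive the milk protein genes, had 7 of 13 members positive, with a median of 0.03; 2 had an unadjusted p under 0.05 and were higher and 1 was lower, against 3.75% and 3.89% over all genes. Jak2, the tyrosine kinase that prolactin activates, was at 1243, 1566, 1303, 1506 and 1258 in saline and at 1803, 2306, 1618, 1471 and 2356 in LPS libraries. LPS libraries 1, 2, 3 and 5 were above all saline libraries (0.43 ± 0.14; limma, adjusted p = 0.553). Cish, a STAT5-induced feedback inhibitor, was at 1653, 2638, 3925, 1913 and 1352 in saline and at 470, 3072, 631, 882 and 1090 in LPS libraries. The 4 LPS libraries other than library 2 were below all saline libraries (-1.05 ± 0.41; limma, adjusted p = 0.609).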

How the data were processed

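RNA of the milk fat layer was sequenced as 100 bp reads from libraries of at least 190 ng of RNA, per the labels' protocols. DESeq2 and rn6 are named, without versions, per the submitters' processing notes; the aligner, counter and annotation are not stated in the labels. A table holds log2 values that the authors scaled between libraries and deposited. Its name calls them rlog, but every column bottoms out at 5.46 (30.4% of entries), as a variance-stabilizing transformation does. It was inverted to normalised counts; their means were 1.17 times (1.16 to 1.18, first to 99th percentile) the base means, another unit, in the authors' deposited comparison table. That deposited table also holds log2 fold changes, a Wald score and p-values raw and adjusted (88 genes without the latter), for genes with a raw p under 0.05. Whole reads could not be recovered, so depth and counting error are unknown, and errors are spreads between libraries.

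Genes were fitted with limma 3.58.1 in R 4.3.3 (moderation along a mean-variance trend) on the deposited log2 values of the 10 libraries; tests were two-sided, with Benjamini-Hochberg adjustment over 12900 genes and a threshold of 0.05. The fit was tested on simulated data with noise independent between genes. It recovered 83 of 100 genes shifted by a log2 change of 1 and 99 of 100 shifted by 2, with 6 false calls. That simulation held no correlation between genes, so it cannot show how the test behaves where genes vary together. Each dam gave 1 library per group, columns carry no dam number, and no batch is labelled. The 28 pathway and 10 marker lists (669 of 714 entries matched, 7 by synonym) and the comparison were chosen with earlier results of these data known; lists got counts and medians, no test. Named genes were any past the threshold, the 10 of smallest p in each direction at a mean value of at least 7.5, the 15 most abundant in each direction of the authors' adjusted calls, the 2 of smallest p under 0.05 in each list, and a fixed set given whatever their outcome; some genes that the rule names are not reported here. Others, list members and abundant genes among them, were named after their values were seen. Symbols turned into dates (25) were restored by gene ID. Another 19 settings were tried, and 1 more was added after the data were seen.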

Additional observations from a re-analysis of the deposited data

Results flagged for a closer look

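In each group of 5 libraries, a library was singled out when its gap to the nearest other exceeded Dixon's critical value; of 274 groups tested 16 met this, where chance gives about 1 in 20, so single cases carry little weight. Among LPS libraries, library 1 was high for Ace (2730 normalised counts, the others 1130 to 1266) and Lao1 (5622, the others 3038 to 3689). LPS library 2 was high for Cish (3072, the others 470 to 1090), library 5 for Ceacam1 (4304, the others 3234 to 3506), and library 3 low for Ubxn8 (319, the others 375 to 389). LPS library 4 was high for Gdf15 (86.4, the others 45.8 to 55.4), a stress-induced hormone, and low in the mean of the endoplasmic reticulum folding list (11.29, the others 11.84 to 11.96).

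Among saline libraries, library 3 stood apart in summed haemoglobin counts (46281, the others 187 to 1658), in Rnd3 (88.2, the others 26.7 to 39.5) and in the mean of the myoepithelium markers (7.05, the others 6.83 to 6.86). Saline library 5 was high for Kcnk15 (725, the others 400 to 439) and Irf1 (1368, the others 760 to 844) and low for Cxcl1 (12.5, the others 16.7 to 18.4). Saline library 1 was low in the mean of the cholesterol list (10.16, the others 10.56 to 10.63) and high in that of secretory transport (12.61, the others 12.57 to 12.58), and saline library 2 was high in glycolysis (11.95, the others 11.71 to 11.78).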

How the results depend on the processing

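Under 10 alternatives that kept all 10 libraries (quantile normalisation, median centring, log2(normalised count + 1), either filter on low values, no trend, a robust trend, library weights, and a fit of 4 groups with or without P11 saline library 2, the last chosen after seeing the data) 0 genes passed the adjusted threshold. Leaving out each library in turn gave 0 to 1, the 1 being Cadps (-0.56; limma, adjusted p = 0.0476) without saline library 1. Leaving out each library moved the count with an unadjusted p under 0.05 between 332 and 736 higher and between 418 and 672 lower, and the genes whose groups did not overlap between 74 and 193 higher and between 125 and 234 lower; the fit with all 20 libraries, in which some dams enter on both days as if independent, gave 285 higher and 320 lower. Of 95 named genes, 8 changed sign in at least 1 setting. Quantile normalisation gave -0.02 for Csn2, -0.26 for Lalba, -0.04 for Wap and -0.39 for Fasn. Leaving out each library in turn, Fasn ranged up to 0.28, Hmgcs1 from -0.41, Tlr4 from -0.42, Nfkbia up to 0.41 and Ccl2 up to 0.20. Without saline library 5, Fasn was -0.14 and Hmgcs1 0.00; without LPS library 5, Fasn was -0.01, Nfkbia -0.14 and Ccl2 -0.09; without saline library 1, Tlr4 was 0.04 and Ccl2 -0.02; without LPS library 1, Ccl2 was -0.16; and on the log2(count + 1) scale it was -0.26. The cause was not tested. The difference in genes detected had an exact permutation p of 0.0635 over all 10 libraries and, unadjusted, of under 0.05 without saline library 5 (0.0476), LPS library 1 (0.0397) or LPS library 3 (0.0476). Of 38 list medians, 9 moved by more than the spread between libraries in at least 1 setting. No paired analysis was possible because LPS and saline dams were different animals that share no number, and the columns carry none.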

Other observations

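Further abundant transcripts of the milk cell, chosen after their values were seen as those with an unadjusted p under 0.05 and a mean deposited value of at least 14, were almost all higher with LPS. Azin1, the antizyme inhibitor that sustains polyamine synthesis, was at 18855, 18857, 18742, 18380 and 20732 normalised counts in saline and at 24284, 27150, 28982, 21331 and 24781 in LPS libraries. Its groups did not overlap (0.40 ± 0.10; limma, adjusted p = 0.497). Pdcd4, an inhibitor of translation, also separated, at 24217 to 30031 in saline and 30068 to 40661 in LPS libraries (0.34 ± 0.11; limma, adjusted p = 0.553). Olah, the thioesterase that releases medium-chain fatty acids of milk, was at 26085 to 82530 and 68759 to 99875 (0.76 ± 0.26; limma, adjusted p = 0.553). B2m, the shared light chain of MHC class I and of the neonatal Fc receptor, was at 21145 to 37572 and 32908 to 51632, with LPS library 4 alone inside the saline range (0.60 ± 0.18; limma, adjusted p = 0.553). Abcg2, which pumps riboflavin into milk, differed by 0.42 ± 0.19, with LPS libraries 3 and 4 inside the saline range. Selenop, the selenium carrier, differed by 0.43 ± 0.15, with LPS library 4 alone inside that range. The single gene of this band that was lower was Sox10, at 17916 to 22216 in saline and at 10460, 17512, 12266, 22934 and 10115 in LPS libraries (-0.45 ± 0.20; limma, adjusted p = 0.645).

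Metabolic and housekeeping lists had between 0 and 2 members with an unadjusted p under 0.05 in each direction. Over all genes the shares were 3.75% higher and 3.89% lower. Of 30 oxidative phosphorylation genes 15 had a positive difference and 0 had an unadjusted p under 0.05 (median 0.01); of 19 glycolysis genes 9 and 0 (median -0.04); of 22 NRF2 targets 11 and 0 (median 0.00); and of 20 ribosomal protein genes 5 and 0 (median -0.04). In fatty acid and triglyceride synthesis 16 of 23 were positive, and Elovl1 alone had an unadjusted p under 0.05 (0.39 ± 0.16). Lactose synthesis had 7 of 11 positive and Ugp2, which makes UDP-glucose, as its single such gene (0.32 ± 0.14). In secretory transport Sec23a and Sec31a of the COPII coat were lower, at -0.30 ± 0.11 and -0.28 ± 0.12, within a list of 25 with 12 positive. Tight junction genes had 11 of 17 positive with Tjp1 at 0.27 ± 0.12, and ion and micronutrient transport 14 of 20, with the zinc transporter Slc30a2 at 443 to 1075 in saline and at 1456, 1905, 815, 746 and 1657 in LPS libraries (0.62 ± 0.27) and the calcium pump Atp2a2 at 0.31 ± 0.13. The p53 list had 13 of 21 positive and the heat shock list 7 of 14, with Hspa1b at 193 to 264 in saline and at 378, 282, 219, 489 and 623 in LPS libraries.

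Glucocorticoid-responsive genes had 10 of 17 positive differences and 0 with an unadjusted p under 0.05, yet differed among the LPS libraries. Mt1, a metallothionein also induced by zinc and cytokines, was at 168 to 1275 in saline and at 327, 4989, 301, 1147 and 4688 in LPS libraries (1.14 ± 0.75; limma, adjusted p = 0.757). Cebpd, a factor of the acute phase response, was at 762 to 1516 and at 1734, 10680, 579, 949 and 15872 (1.20 ± 0.75; limma, adjusted p = 0.752). Both were highest in LPS libraries 2 and 5. Among clock genes, of which 9 of 16 were positive, Cry2, a repressor of the clock, was at 75.4 to 480 in saline and 274 to 624 in LPS libraries (0.91 ± 0.35; limma, adjusted p = 0.608), and Per1 was at 4226 to 8785 and 2801 to 6265 (-0.51 ± 0.24; limma, adjusted p = 0.646).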
